A study of Homo sapiens with 12 samples.

Results

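The genes described here sense DNA double-strand breaks and relay the signal to the cell cycle checkpoint, and their rows were taken from both deposited tables by symbol. They are 10 of the 26485 genes listed in each table: NBN, RAD50, ATM, ATR, MDC1, TP53BP1, RNF8, RNF168, CHEK1 and CHEK2. Messenger RNA was sequenced from HEK293T, an established line derived from human embryonic kidney that expresses the SV40 large T antigen, after PEI transfection with a PX330-GFP type plasmid. The 12 samples formed 4 groups of 3: a 6T sgRNA with Cas9, the 6T sgRNA without Cas9, a Luciferase sgRNA with Cas9 and the Luciferase sgRNA without Cas9. All groups thus received a plasmid, PEI and an sgRNA, and no untransfected group was analysed here. The labels give no sorting step for GFP and do not say whether the 3 samples of a group came from separate cultures, so a p-value reflects only how these samples vary, which may be technical.

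Each table compares 2 conditions, A and B, of 1 sgRNA. Neither states which of them held Cas9, nor whether the order is the same in both. Fold changes are therefore given as B over A of the same table, and comparisons between the tables go by letter only. The table values are means of 3 libraries after division by a size factor that evens out depth, here called normalized reads. The whole reads of each library were recovered from these means, and the libraries are called A1 to A3 and B1 to B3 in order of size factor, which is no replicate number. These size factors lay within 0.0522% of factors computed over all 12 libraries together, so levels can be set side by side between the tables.

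When both strands of a chromosome are cut, the complex that contains RAD50 and NBN binds the ends and activates the kinase ATM, while ATR responds to the single-stranded DNA exposed at resected ends and stalled forks. ATM phosphorylates histone H2AX, MDC1 docks on that mark, and the ubiquitin ligases RNF8 and RNF168 then modify chromatin so that 53BP1 (from TP53BP1) can bind. CHEK2 and CHEK1 carry the signal of ATM and ATR to the cell cycle. These steps run mainly through phosphorylation and ubiquitin, which RNA-seq does not measure, and in HEK293T the large T antigen binds p53, a main target of the pathway.

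The 10 transcripts differ in base composition, and their values are set against it further below. GC content of the principal transcript, from GENCODE v29 (GRCh38), was 37.3% for NBN, 39.1% for ATM, 40% for ATR, 41.4% for RAD50, 41.5% for CHEK1, 43.7% for RNF8, 44.4% for RNF168, 45.1% for CHEK2, 48% for TP53BP1 and 53.3% for MDC1. The median over genes with a mean of 50 or more normalized reads was 49.4%, so MDC1 alone of the 10 lay above it. To show the contrast, 120 bases of coding sequence are printed for 4 of the genes, each the stretch whose GC content is nearest to that of its transcript, with every G and C in capitals. The stretches start at coding base 16 (ATM), 52 (ATR), 49 (CHEK1) and 76 (MDC1).
ATM: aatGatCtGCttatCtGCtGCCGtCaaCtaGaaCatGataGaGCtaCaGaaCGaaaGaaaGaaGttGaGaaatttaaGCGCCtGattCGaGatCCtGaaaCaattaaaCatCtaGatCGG
ATR: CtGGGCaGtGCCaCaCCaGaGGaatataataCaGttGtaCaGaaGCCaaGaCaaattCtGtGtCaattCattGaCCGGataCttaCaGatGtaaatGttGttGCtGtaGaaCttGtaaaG
CHEK1: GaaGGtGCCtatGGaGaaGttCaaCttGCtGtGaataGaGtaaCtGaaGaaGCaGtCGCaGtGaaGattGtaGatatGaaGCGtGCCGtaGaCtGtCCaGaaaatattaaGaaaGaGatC
MDC1: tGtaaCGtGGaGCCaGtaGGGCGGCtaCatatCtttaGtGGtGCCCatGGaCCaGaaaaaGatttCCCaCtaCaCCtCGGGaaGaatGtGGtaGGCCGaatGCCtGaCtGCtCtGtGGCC
In these stretches G and C make up 39.2% (ATM), 40% (ATR), 41.7% (CHEK1) and 53.3% (MDC1) of the bases.

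Reads in genes per library ranged from 5892029 to 8294722 in the 9 libraries of 6T A, 6T B and Luciferase A and from 19399375 to 38076941 in Luciferase B, so condition and depth went together in the Luciferase table. All 6 markers of the HEK293 line (VIM, NEFM, NEFL, PAX2, LHX1 and EYA1) were detected in all 12 libraries. Their summed level ran from 11615 to 12914 normalized reads in 6T A, 11301 to 12302 in 6T B, 10303 to 10753 in Luciferase A and 10585 to 11024 in Luciferase B, so it was lower in every Luciferase library than in any 6T library. Of the blood and immune markers CD3E and HBB were at 0 in all 12 libraries. Of the 6 markers of differentiated epithelium UMOD was at 0 in all 12 and CDH1 lay between 99.1 and 153 normalized reads, with a summed level of the list from 130 to 177. In such bulk RNA, fewer cells that express a gene and less RNA per cell cannot be told apart.

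None of the 10 genes passed an adjusted p under 0.05 under either sgRNA. Under the 6T sgRNA the mean of all 10 was lower in condition B, with log2 fold changes from −0.30 (ATR) to −0.03 (MDC1) and a median of −0.15. Over all 14051 genes with a mean of 10 or more, 57.8% had a lower mean in B and the median was −0.03. Under the Luciferase sgRNA the mean of 9 of the 10 was higher in B. The log2 fold changes there ran from −0.14 (MDC1) to 0.60 (ATR), with 0.25 as their median. Here 49% of all genes had a higher mean in B, and the median over all genes was −0.01. In the authors' deposited test (DESeq) 8 of 19246 genes, or 0.0416%, passed an adjusted p under 0.05 under 6T. Under Luciferase 0 of 20194, or 0%, passed it. There 246 genes had an unadjusted p under 0.05, 1 of them among the 10. limma, fitted to recovered reads, called 0 genes there, with 1345 at an unadjusted p under 0.05, and 0 under 6T, with 330.

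The 10 genes were read at different levels, which can be compared between genes only per length of transcript. Over the 12 libraries the mean level in normalized reads per kilobase was highest for MDC1 (432), followed by CHEK2 (263), CHEK1 (164), RNF8 (120), TP53BP1 (111), RAD50 (77.3), NBN (58.6), RNF168 (56.2), ATR (43.6) and ATM (38.5). MDC1 stood apart, with its lowest library at 383 per kilobase and the highest library of any other of these genes, CHEK2, at 352. CHEK2, from 202 per kilobase up, also lay above the genes after it in every library. CHEK1 (123 to 198), RNF8 (100.0 to 148) and TP53BP1 (83.3 to 128) overlapped over libraries. RAD50 (49.3 to 96.0) overlapped TP53BP1, NBN (25.1 to 111), RNF168 (45.2 to 66.5), ATR (14.6 to 63.5) and ATM (24.4 to 53.6), and these last 4 overlapped each other. These levels take a single transcript length per gene, and other isoforms would shift them.

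**Figure D1:**
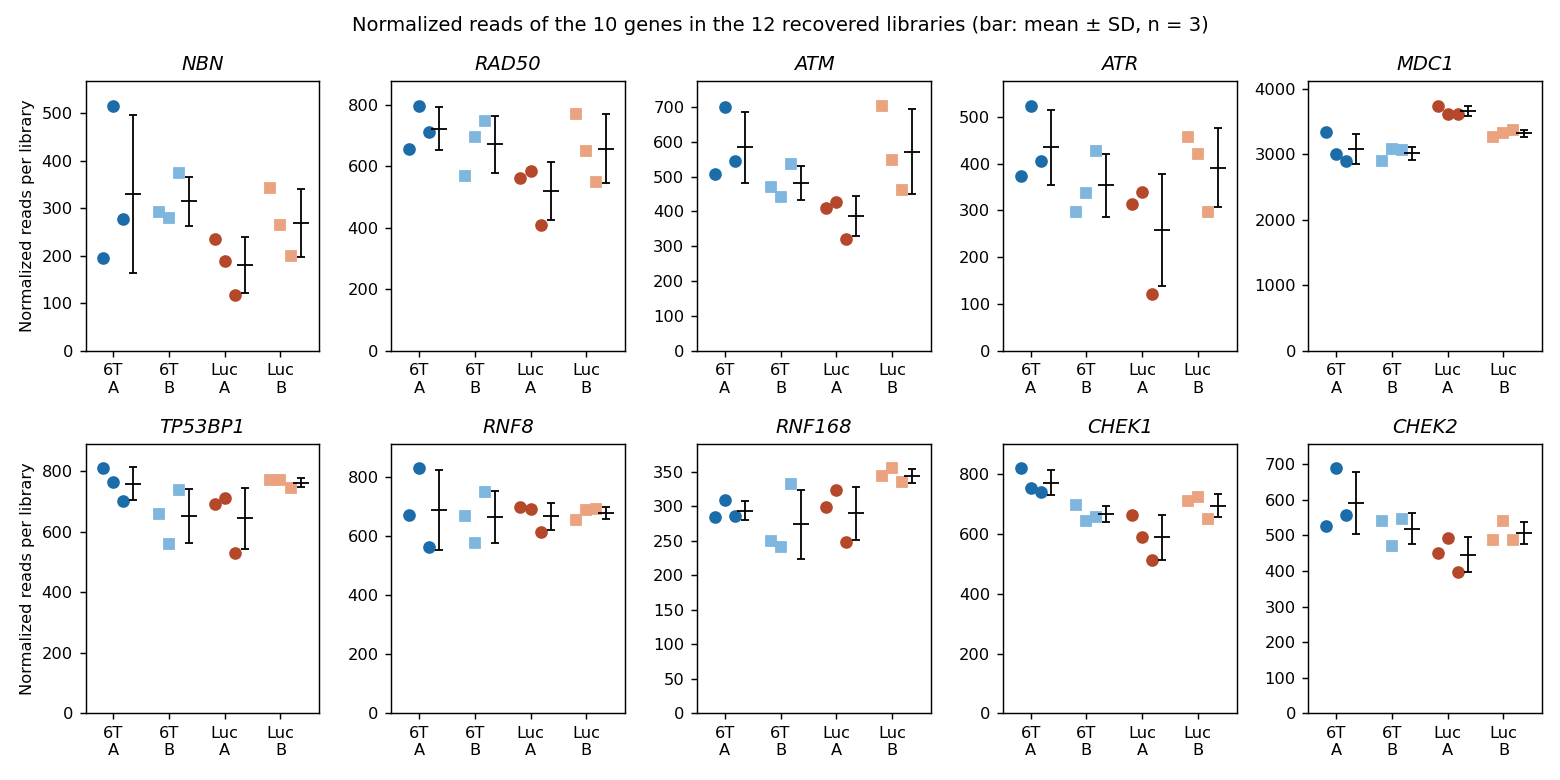
Normalized reads of each of the 10 genes (vertical axis, from 0) in the 12 recovered libraries, by sgRNA and condition, with the mean and SD of each group of 3 beside its points. ATR and NBN have their lowest library, at 121 and 117 normalized reads, in Luciferase A, and their highest, at 524 and 517, in 6T A.

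The end sensors are described first. NBN, on chromosome 8, encodes nibrin, which brings ATM to the broken end. Under the 6T sgRNA its normalized reads were 196, 517 and 277 in condition A and 293, 279 and 375 in condition B. Under the Luciferase sgRNA they were 235, 189 and 117 in A and 342, 264 and 200 in B. Library A2 under 6T was high and A3 under Luciferase low, and the conditions overlapped under both sgRNAs. The SD in 6T A, 167 around a mean of 330 (n = 3), was the widest of the 10 genes relative to the mean. The authors' log2 fold change was −0.06 (p = 0.841) under 6T and 0.57 (p = 0.307) under Luciferase, both with adjusted p = 1 (DESeq). On the mean of log2 reads the 6T difference had the other sign, 0.04, and without library A2 it was 0.42.

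RAD50, on chromosome 5 (132556019 to 132646344, plus strand), encodes the ATPase that tethers the ends. Its normalized reads under 6T were 658, 797 and 711 in A and 569, 697 and 748 in B. Under Luciferase they were 563, 583 and 410 in A and 771, 651 and 548 in B. The conditions overlapped in both tables, and the lowest value of all 12 was again Luciferase A3. The authors' log2 fold change was −0.10 (p = 0.484) under 6T and 0.34 (p = 0.10) under Luciferase, with adjusted p = 1 in both (DESeq). Exons of RAD50 share 7784 bases with another annotated gene on the same strand, AC116366.3, which makes its count uncertain.

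The upstream kinases had the largest fold changes of the 10 genes under 6T, and under Luciferase ATR, NBN and ATM had. ATM, on chromosome 11 (108222484 to 108369102, plus strand), encodes the kinase that broken ends activate. Under 6T its normalized reads were 507, 699 and 546 in A and 469, 441 and 537 in B. Under Luciferase they were 409, 428 and 321 in A and 704, 547 and 463 in B. All 3 Luciferase B libraries lay above all 3 of A, whereas the 6T conditions overlapped. The group means were 386 ± 57.4 in Luciferase A and 571 ± 122 in Luciferase B (SD, n = 3). The authors' log2 fold change under Luciferase, 0.57, had the smallest unadjusted p of the 10 genes (0.0187), with adjusted p = 1 (DESeq). Without library B1 the limma estimate was 0.39, and without A3 it was 0.43. Under 6T the authors' value was −0.28 (p = 0.168, adjusted p = 1, DESeq).

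ATR, on chromosome 3 (142449235 to 142578826, minus strand), encodes the kinase of stalled forks. Its normalized reads under 6T were 374, 524 and 406 in A and 296, 337 and 428 in B. Under Luciferase they were 314, 339 and 121 in A and 457, 421 and 296 in B. The value of 121 rests on 73 reads and lay below all other 11 libraries, and the conditions overlapped in both tables. The authors' log2 fold change was −0.30 (p = 0.278) under 6T and 0.60 (p = 0.111) under Luciferase, with adjusted p = 1 in both (DESeq). Without that library the Luciferase difference by limma was 0.24, against 0.71 with it. A processed pseudogene on the opposite strand, AC109992.1, overlaps 2048 exonic bases of ATR, and the sources used here do not say whether counting used strand.

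The mediators hold repair factors at the break, and here MDC1 differed from the rest. MDC1, on chromosome 6 (30699807 to 30717889, minus strand), encodes the adaptor that reads phosphorylated H2AX, and in its groups the SD was between 1.57% and 7.41% of the mean. Its normalized reads were 3342, 3013 and 2903 in 6T A and 2904, 3078 and 3065 in 6T B. Under Luciferase they were 3746, 3614 and 3620 in A and 3269, 3324 and 3373 in B. It was the only one of the 10 with a lower mean in Luciferase B, and there all 3 B libraries lay below all 3 of A. The authors' log2 fold change was −0.14 (p = 0.394) under Luciferase and −0.03 (p = 0.770) under 6T, both with adjusted p = 1 (DESeq). An antisense gene, MDC1-AS1, covers 701 of its 8064 exonic bases.

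TP53BP1, on chromosome 15 (43403061 to 43510728, minus strand), encodes 53BP1, which limits resection of the ends. Its normalized reads were 810, 764 and 703 in 6T A and 658, 560 and 737 in 6T B. Under Luciferase they were 691, 713 and 529 in A and 770, 772 and 744 in B. The Luciferase conditions did not overlap, and the 3 B libraries lay within an SD of 15.7 of their mean of 762 (n = 3). The authors' log2 fold change was −0.22 (p = 0.145) under 6T and 0.24 (p = 0.233) under Luciferase, with adjusted p = 1 in both (DESeq). Without Luciferase A3 the latter was 0.12 by limma. TUBGCP4 on the opposite strand shares 3732 exonic bases with it.

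Of the ubiquitin ligases, RNF8 was nearly level. RNF8, on chromosome 6 (37353972 to 37394738, plus strand), encodes the ligase that is drawn to phosphorylated MDC1. Its normalized reads were 674, 831 and 563 in 6T A and 669, 578 and 752 in 6T B. Under Luciferase they were 698, 693 and 616 in A and 655, 690 and 692 in B. The conditions overlapped in both tables. The authors' log2 fold change was −0.05 (p = 0.660) under 6T and 0.02 (p = 0.990) under Luciferase, with adjusted p = 1 in both (DESeq).

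RNF168, on chromosome 3 (196468783 to 196503768, minus strand), encodes the ligase that ubiquitinates histone H2A. Its normalized reads were 285, 310 and 286 in 6T A and 250, 242 and 332 in 6T B. Under Luciferase they were 299, 323 and 248 in A and 344, 355 and 335 in B. The 6T conditions overlapped and the Luciferase conditions did not, with B higher. The authors' log2 fold change was −0.10 (p = 0.521) under 6T and 0.25 (p = 0.246) under Luciferase, with adjusted p = 1 in both (DESeq).

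The checkpoint kinases close the chain. CHEK1, on chromosome 11 (125625136 to 125676255, plus strand), encodes the kinase that acts mainly downstream of ATR. Its normalized reads were 821, 755 and 741 in 6T A and 697, 645 and 658 in 6T B. Under Luciferase they were 664, 591 and 512 in A and 712, 725 and 651 in B. It was the only one of the 10 whose 6T conditions did not overlap, at 772 ± 42.3 in A and 667 ± 27.1 in B (SD, n = 3), while the Luciferase conditions overlapped. The authors' log2 fold change was −0.21 (p = 0.181) and 0.24 (p = 0.251), with adjusted p = 1 in both (DESeq).

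CHEK2, on chromosome 22 (28687743 to 28742422, minus strand), encodes the kinase that acts downstream of ATM. Its normalized reads were 527, 689 and 557 in 6T A and 542, 469 and 546 in 6T B. Under Luciferase they were 450, 493 and 397 in A and 487, 542 and 488 in B. The conditions overlapped in both tables. The authors' log2 fold change was −0.19 (p = 0.245) under 6T and 0.18 (p = 0.375) under Luciferase, with adjusted p = 1 in both (DESeq). HSCB on the opposite strand covers 301 of its 4493 exonic bases.

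The counts of genes whose conditions did not overlap are read against all genes with a mean of 10 or more. Under 6T, 1 of the 10 (CHEK1) lay lower in B in all libraries, against 3.68% of all genes. Under Luciferase, 3 of the 10 (ATM, TP53BP1 and RNF168) lay higher in B, against 6.45% of all genes, and 1 (MDC1) lay lower, against 9.55%.

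Several of these differences shrank when a single library was left out and grew when another was, as the limma log2 values show. Under 6T without A2 the median of the 10 genes was −0.07, against −0.15 with it. ATM was then −0.13 (−0.27 with A2), ATR −0.16 (−0.30), CHEK2 −0.06 (−0.18), RAD50 −0.04 (−0.11) and RNF168 −0.07 (−0.11), and 8 of the 10 stayed below 0. Leaving out B2 took TP53BP1 from −0.23 to −0.12. Without B3 the 6T median was −0.21 instead, with ATR at −0.44 and all 10 genes below 0. Luciferase A3 had the fewest reads in genes of the 12 libraries. Without it the Luciferase median was 0.15, against 0.25 with it, and 8 of the 10 stayed above 0. NBN was then 0.32 (0.60 with A3), RAD50 0.18 (0.34), CHEK1 0.15 (0.25), RNF168 0.15 (0.26) and CHEK2 0.10 (0.18), beside the values of ATR, ATM and TP53BP1 given above. Without Luciferase A2 the Luciferase median was 0.34 instead, with ATR at 0.98 and 9 of the 10 genes above 0.

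**Figure D2:**
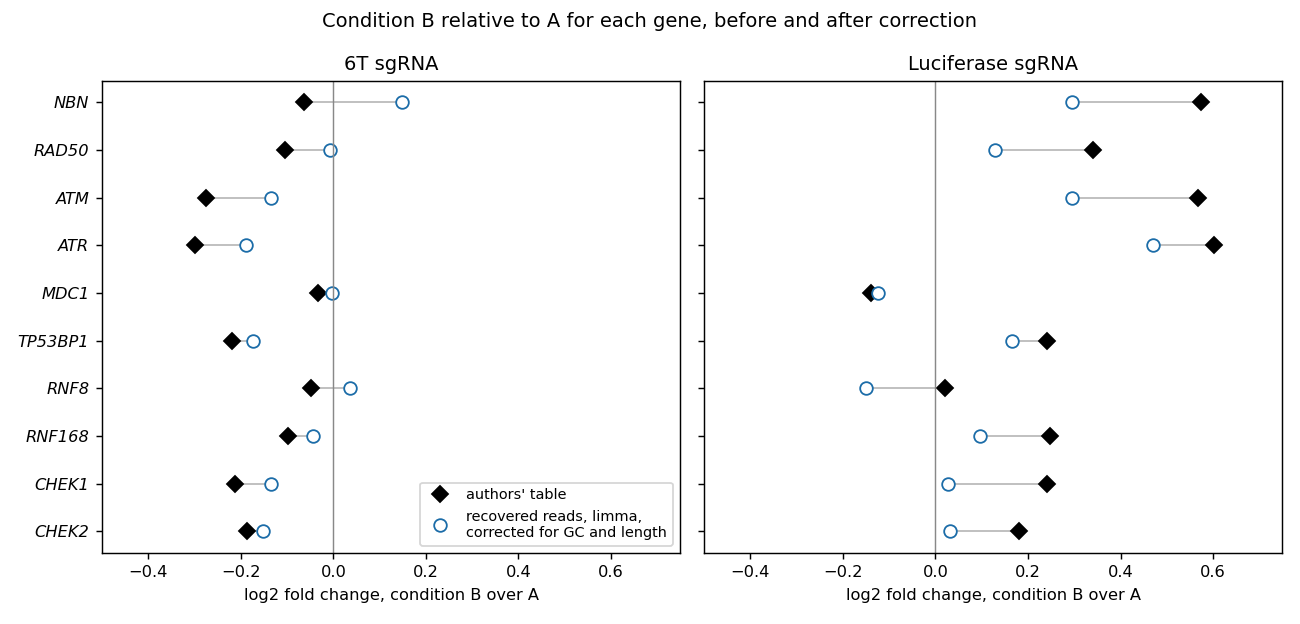
The log2 fold change of condition B over A for each gene (horizontal axis) in the authors' table and, from the recovered reads, after correction for GC content and transcript length. Under Luciferase ATM moves from 0.57 to 0.30 and CHEK1 from 0.24 to 0.03, while MDC1 stays near −0.14 with −0.12.

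Setting the sgRNAs side by side within a condition gave the widest gaps, and these were in condition A. Whether condition A held Cas9 in both tables is not known, so a gap between sgRNAs and a gap in Cas9 cannot be told apart here. In condition A the limma log2 difference of Luciferase from 6T was −0.87 ± 0.32 for ATR, −0.81 ± 0.32 for NBN, −0.59 ± 0.17 for ATM and −0.49 ± 0.16 for RAD50 (± SE, 3 libraries against 3). CHEK2 and CHEK1 stood at −0.40 ± 0.12 and −0.40 ± 0.10, TP53BP1 at −0.25 ± 0.13, and RNF8 and RNF168 at −0.03 ± 0.13 and −0.02 ± 0.14. MDC1 was the only one with a higher level under Luciferase, by 0.25 ± 0.07. None passed an adjusted p under 0.05 by limma, the smallest being 0.0618 (CHEK1).

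In the same comparison 7 of the 10 genes had an unadjusted p under 0.05, as did 4403 of all 14009 genes, and limma called 9 genes, or 0.0642%. In 5 of the 10 (ATM, ATR, CHEK1, CHEK2 and RAD50) all Luciferase A libraries lay below all 6T A libraries, against 16% of all genes. MDC1 lay above in all, against 17% of all genes. Without library Luciferase A2 the ATM difference was −0.68 and passed the threshold (adjusted p = 0.0495, limma). Over all genes 1022 passed it then, against 9 with that library. Without Luciferase A3 that of ATR was −0.40, that of NBN −0.53 and that of TP53BP1 −0.11, and 7 rather than 9 of the 10 genes had a lower level under Luciferase. The same number, 7, was lower without 6T A2, where NBN was at −0.42.

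In condition B the sgRNAs differed less. The median log2 difference of the 10 genes was 0.10, with 7 higher under Luciferase, and the differences ran from −0.25 ± 0.32 (NBN) to 0.34 ± 0.14 (RNF168; ± SE). Without Luciferase B1 or B2 the median was 0.05, and without 6T B3 it was 0.14. TP53BP1, MDC1 and RNF168 lay higher in all Luciferase B libraries than in all 6T B libraries, against 6.75% of all genes. By limma 0% of the 14009 genes were called, 757 had an unadjusted p under 0.05, and of the 10 genes RNF168 alone did (adjusted p = 0.901, limma).

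The difference between the sgRNAs in B over A was tested directly as an interaction in limma over all 12 libraries. The order of A and B may differ between the sgRNAs, so it cannot be read as a difference in response to Cas9. The interaction was above 0 for 9 of the 10 genes and for 7591 of all 14009 genes. Its median was 0.46 over the 10, against 0.04 over all genes. ATR stood at 1.01 (95% interval 0.05 to 1.98), ATM at 0.82 (0.31 to 1.33), TP53BP1 at 0.48 (0.10 to 0.86) and CHEK1 at 0.46 (0.15 to 0.77). The intervals of the other 6 genes included 0. Without Luciferase A3 the median was 0.29, with ATR at 0.54, RAD50 at 0.29 and NBN at 0.27, and without 6T A2 NBN was at 0.17. Without Luciferase A1 the median was 0.53. With each library corrected for the GC content and length of transcripts, the median was 0.15, with ATR at 0.66, ATM at 0.43, TP53BP1 at 0.34 and CHEK1 at 0.16. No gene of the 14009 passed the adjusted threshold (0%), 1317 had an unadjusted p under 0.05, and the 10 genes had adjusted p of 0.485 or more (limma). With the authors' fold changes in place of the recovered reads, 0 genes were called as well.

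**Figure D3:**
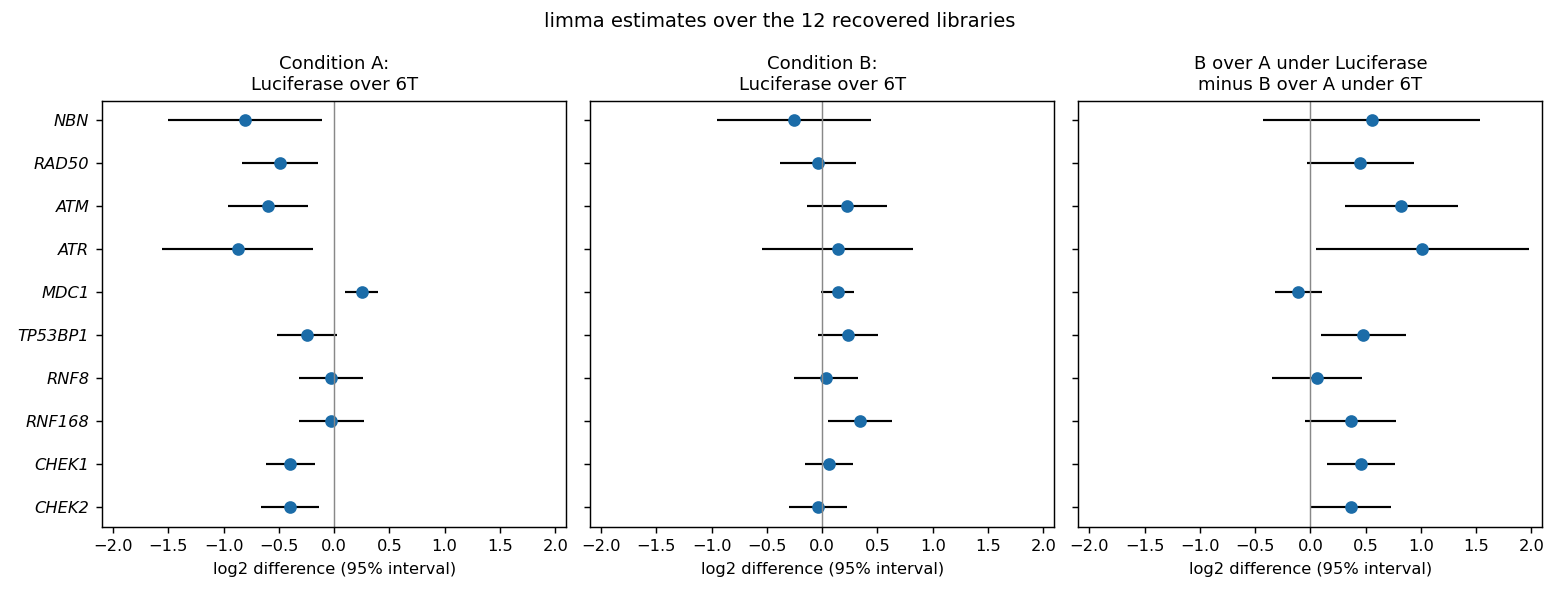
limma estimates for each gene with 95% intervals (horizontal axis, log2), for Luciferase over 6T in condition A and in condition B and for the difference between the sgRNAs in B over A. In condition A 7 intervals exclude 0, in condition B only that of RNF168 does, and in the difference those of ATM, ATR, TP53BP1 and CHEK1 do.

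A base-composition index followed several of these genes from library to library. The index is the median log2 deviation of the GC-poorest genes (up to 42.6% GC) minus that of the GC-richest genes (57.4% GC or more), with 2787 genes at each end and none of the pathway genes among them. It was 0.02, 0.50 and 0.21 in 6T A, −0.07, 0.10 and 0.25 in 6T B, −0.21, −0.13 and −0.83 in Luciferase A, and 0.31, 0.13 and −0.27 in Luciferase B. The level of GC-poor relative to GC-rich genes was thus lowest in Luciferase A3 and highest in 6T A2.

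Over the 12 libraries Pearson's r of a gene's log2 level with this index was 0.98 for RAD50, 0.96 for ATR, 0.92 for NBN, 0.91 for ATM and 0.82 for CHEK2. Spearman's rho for these 5 was 0.97, 0.92, 0.83, 0.89 and 0.65. For CHEK1, TP53BP1, RNF168 and RNF8 r was 0.75, 0.61, 0.40 and 0.33, and for MDC1 it was −0.64. Among all genes 20.2% had an r above 0.8. These values are descriptions: the index and the genes come from the same libraries. Without Luciferase A3 and 6T A2, r over the remaining 10 libraries was 0.97 for RAD50, 0.90 for ATR, 0.81 for ATM, 0.77 for NBN and −0.55 for MDC1. It was 0.46 for CHEK2, 0.37 for CHEK1, 0.12 for RNF168, 0.10 for TP53BP1 and −0.28 for RNF8. The r of these 5 genes over the 12 libraries thus rests on those libraries. Within the 6 libraries of 6T alone r was 0.92 (RAD50), 0.95 (ATR), 0.88 (ATM) and 0.82 (NBN), and within Luciferase 0.99, 0.97, 0.94 and 0.96. For MDC1 it was −0.16 within 6T and −0.63 within Luciferase. For CHEK2, CHEK1, RNF168, TP53BP1 and RNF8 it was 0.76, 0.05, 0.67, 0.31 and 0.56 within 6T. Within Luciferase, with A3 included, these genes had 0.83, 0.90, 0.90, 0.91 and 0.51.

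**Figure D4:**
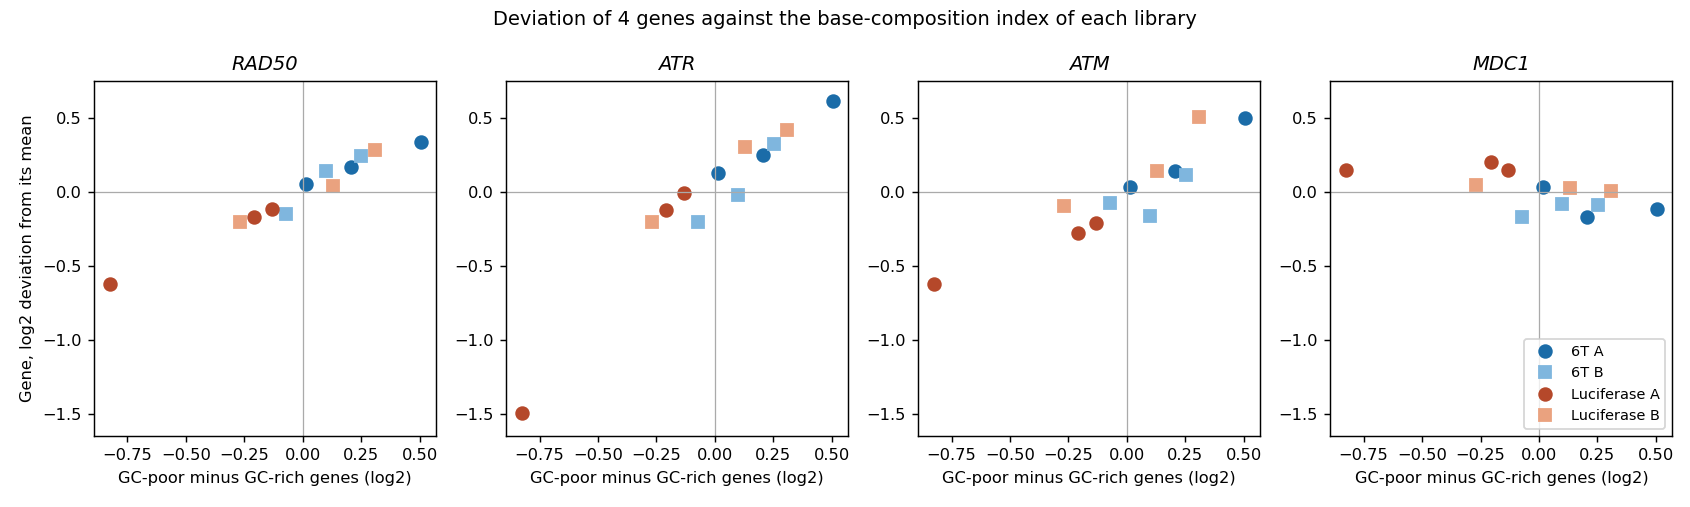
The log2 deviation of RAD50, ATR, ATM and MDC1 from their mean (vertical axis) against the base-composition index (horizontal axis, log2), 1 point per library. RAD50, ATR and ATM are lowest in Luciferase A3, at an index of −0.83, and high in 6T A2, at 0.50. For MDC1 Pearson's r was −0.64 over the 12 libraries and −0.16 within those of 6T.

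Fold changes followed GC content across genes as well. Across 11190 genes, which are not independent replicates, Spearman's rho of the authors' log2 fold change with GC content was 0.48 under 6T and −0.77 under Luciferase. In the GC-poorest of 10 equal bins of genes, at a median GC of 37.5%, the median log2 fold change was 0.39 under Luciferase and −0.11 under 6T. NBN and ATM (37.3% and 39.1% GC), with 0.57 each under Luciferase, lay above the upper quartile of that bin, 0.54. The next bin, at a median GC of 40.3%, had a middle 50% from 0.16 to 0.42 under Luciferase. ATR (40% GC), at 0.60, lay above that range, and so did ATM, whose GC content was between the medians of these bins. RAD50 and CHEK1 (41.4% and 41.5% GC), at 0.34 and 0.24, lay inside it. Their GC content was between its median and that of the bin after it, 42.6%. There the middle 50% ran from 0.09 to 0.31, with CHEK1 inside it and RAD50 above it.

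With each library corrected for GC content and length, the median of the 10 genes was −0.09 under 6T and 0.11 under Luciferase. Under Luciferase ATR was then 0.47, ATM 0.30, NBN 0.29, TP53BP1 0.16, RAD50 0.13, RNF168 0.10, CHEK2 0.03 and CHEK1 0.03, and MDC1 and RNF8 were −0.12 and −0.15. In condition A the corrected difference of Luciferase from 6T had a median of −0.16 over the 10 genes, against −0.40 before correction. It was −0.54 for ATR, −0.38 for NBN, −0.25 for ATM, −0.20 for RAD50, −0.18 for CHEK2, −0.14 for TP53BP1 and −0.09 for CHEK1. For RNF8, MDC1 and RNF168 it was 0.21, 0.20 and 0.19. None of the 10 passed the adjusted threshold after correction (limma). What else moves with the index in these libraries was not tested.

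**Figure D5:**
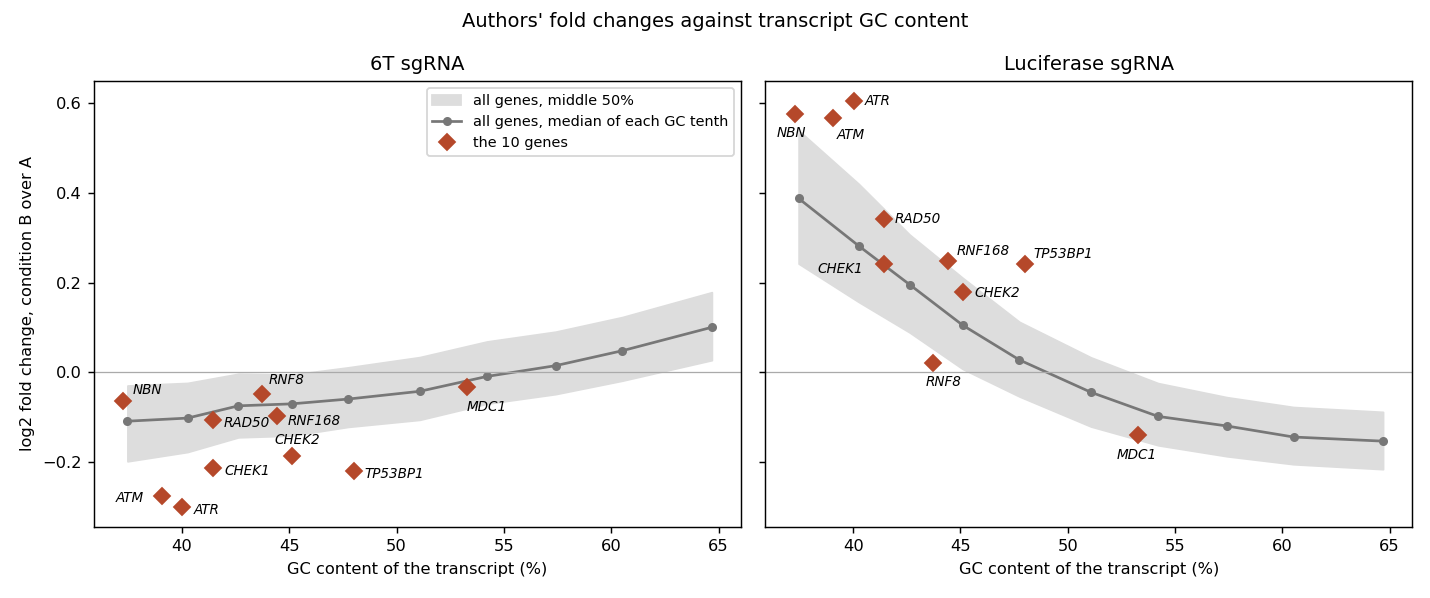
The authors' log2 fold change of condition B over A (vertical axis) against transcript GC content in percent, with the median and the middle 50% of all genes in each of 10 bins of GC content and the 10 genes as points. Under Luciferase the all-gene median falls from 0.39 in the GC-poorest bin to −0.15 in the GC-richest, and the points of ATM, ATR and NBN lie near 0.6.

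Among the 45 pairs of the 10 genes Pearson's r over the 12 libraries had a median of 0.55 and ran from −0.68 (NBN with MDC1) to 0.94 (RAD50 with ATR), and 38 pairs were above 0. ATM had an r of 0.89 with RAD50 and 0.88 with ATR. Of 11648 other genes, 256 had an r above 0.9 with ATM, which among the 10 genes and over both tables had the smallest unadjusted p, under Luciferase. The highest were LPP (0.98), FAM199X (0.97), ZBTB6 (0.97), STXBP4 (0.97) and ZNF780A (0.96), all with a GC content below 40%, from 34.9% for ZBTB6 to 39.6% for LPP. LPP had authors' log2 fold changes of −0.33 under 6T and 0.65 under Luciferase, beside −0.28 and 0.57 for ATM.

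The other genes of the pathway were described from a list of 38, all of them measured. None was called in any of the comparisons. Under 6T 24 had a lower and 14 a higher mean in B (median log2 fold change −0.05), and under Luciferase 13 were lower and 25 higher (median 0.08). By role, 6 of 7 further mediators and 9 of 11 further end sensors and clamp subunits had a higher mean in Luciferase B. So did 7 of 11 genes of ubiquitin signalling and 3 of 9 effectors and shut-off genes, against 49% of all genes. In the same order 6 of 7, 6 of 11, 7 of 11 and 5 of 9 had a lower mean in 6T B, against 57.8% of all genes.

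The 3 further genes per direction with the smallest p were named in each comparison. In the authors' deposited table BARD1, the partner of BRCA1, stood under Luciferase at 0.45 (p = 0.0323), RAD17, which loads the checkpoint clamp, at 0.40 (p = 0.0692) and BRCA1 at 0.33 (p = 0.113), all with adjusted p = 1 (DESeq). BABAM1, OTUB1 and TRIM28 stood at −0.23, −0.18 and −0.15. BARD1 read 192 ± 39.9 normalized reads in Luciferase A and 263 ± 46.2 in B (SD, n = 3). In the authors' deposited table for 6T the kinase WEE1, which restrains entry into mitosis, stood at 0.25 (p = 0.141), and H2AFX, the gene of histone H2AX, at 0.15 (p = 0.344). HUS1, UBE2N and PAXIP1 stood at −0.22, −0.20 and −0.16, and RAD1 at 0.11, all with adjusted p = 1 (DESeq).

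In condition A BRCA1 was at −0.55, TOPBP1, an activator of ATR, at −0.44, and the deubiquitinase USP3 at −0.40 in Luciferase relative to 6T, with the smallest adjusted p of the list for USP3 (0.0613, limma). HERC2, BABAM1 and PPM1D were at 0.28, 0.28 and 0.26. In condition B PPM1D, a phosphatase that turns the checkpoint off, was at 0.35 (adjusted p = 0.701), ATRIP, the partner of ATR, at 0.35 and CDC25A at 0.16, and RPA2, BRE and RAD1 were at −0.17, −0.17 and −0.18 (limma). In the difference between the sgRNAs CDC25C, TOPBP1 and USP3 stood at 0.37, 0.37 and 0.35, and BABAM1, OTUB1 and CDC25B at −0.32, −0.19 and −0.16, with adjusted p of 0.485 or more (limma).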

How the data were processed

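Per the submitters' processing notes, reads were aligned with STAR to hg38, counted per gene with HTSeq and compared with DESeq, with no versions given. The authors deposited a table per sgRNA, whose signal values are mean counts after division by size factors, per the file headers. Its ratio column is the authors' fold change of B over A, its log2 column the log2 of it, and its p-value columns the authors' deposited test. HTSeq rows without a gene held from 38.6% to 42.3% of normalized reads and were left out. Their share was 38.6% in 6T A, 38.7% in 6T B, 42.3% in Luciferase A and 41.1% in Luciferase B. Reads without a unique alignment made up 19.4%, 19.9%, 24.65% and 22.6% in the same order, so their share was higher in the Luciferase table.

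Each library's whole reads were worked out from the deposited means for 99.7% to 100.0% of genes above 0 in a condition, and for all 10 genes; on simulated means every solution was the true one. In Luciferase B up to 12.1% of a library's reads were taken at the mean in its total. limma (3.58.1, R 4.3.3) was run with its trend option on log2(normalized reads + 1) for genes with a mean of 10 or more, with Benjamini-Hochberg adjustment over all genes, and was tested on simulated data. A fold change on this scale understates that of low genes. The 10 genes and the lists were chosen with earlier results of these data known. Named genes were the 10, up to 3 of the pathway list per direction and comparison by smallest p, and the 5 genes most like the member with the smallest p. Alternatives covered the pseudocount, the filter, scaling, single libraries, GC content with length, and depth. A marker of the lists is not reported here.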

Additional observations from a re-analysis of the deposited data

How the results depend on the processing

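No paired analysis was possible because the deposited columns are group means and the recovered libraries carry no replicate number. Under 6T the authors' test called 8 genes and limma 0 under every setting run: as fitted, corrected for GC content and length, without a filter, with a pseudocount of 0.5, with scaling by total reads, and with single libraries left out (0 to 0). Under Luciferase the count was 0, and 5 after correction for GC content and length. In condition A the count was 9, and 282 with scaling by total reads; with single libraries left out it ran from 0 (without 6T A1, 6T A3 or Luciferase A3) to 1022 (without Luciferase A2). In condition B it was 0, 1 after correction, and 0 to 1 with single libraries left out (1 without 6T B1). The cause of these moves was not tested.

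Of 750 values of the 10 genes under alternatives, 32 changed sign and 1 became called. The latter was ATM in condition A without Luciferase A2, where 1022 of all genes were called. NBN under 6T was 0.04 by limma, without a filter and with a pseudocount of 0.5 (0.042), 0.058 with scaling by total reads and 0.15 after correction. RNF8 was 0.035 under 6T, −0.15 under Luciferase, 0.21 in condition A and −0.19 in the difference after correction; with the deep libraries thinned it was −0.029 under Luciferase and −0.017 in condition B. RNF168 was 0.19 in condition A after correction, and CHEK2 in condition B was 0.0026 thinned and 0.0029 corrected. With single libraries left out, differences that crossed 0 ran, under 6T, from −0.27 to 0.42 (NBN), −0.074 to 0.028 (MDC1), −0.18 to 0.11 (RNF8) and −0.19 to 0.0043 (RAD50). Under Luciferase RNF8 ran from −0.035 to 0.055. In condition A RNF8 ran from −0.16 to 0.12 and RNF168 from −0.11 to 0.084. In condition B RNF8 ran from −0.063 to 0.13, CHEK2 from −0.11 to 0.0027 and RAD50 from −0.16 to 0.087, and the difference for RNF8 from −0.082 to 0.20. With a library left out its group has 2 libraries and the spread is pooled over groups.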
